A study of Mus musculus with 15 samples.

Results

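Polycomb complex subunits were examined in the thalamus of control and Maged1 conditional knockout (cKO) mice after repeated saline or cocaine. The 36 members were taken by name from a list of subunits and not by a cut on their values, although the list was drawn up with earlier results of these data known, and comprised 23 genes of Polycomb repressive complex 1 (PRC1), 11 genes of Polycomb repressive complex 2 (PRC2) and the 2 ASXL cofactors of the Polycomb deubiquitinase PR-DUB. All 36 were among the 25080 genes listed in the files, and 33 reached at least 1 TPM (transcript abundance normalized to length and library) in at least 3 libraries and entered the test with 13471 genes in all.

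RNA was sequenced from whole dissected thalamus of mice aged 2 to 4 months that received saline for 3 days and then cocaine at 20 mg/kg or saline, by intraperitoneal injection, for 5 days. In cKO mice a floxed Maged1 is deleted by Cre under the Vglut2 promoter, so glutamatergic Vglut2 neurons lose the gene and other thalamic cells keep it. Control mice are called Maged1 WT in the titles, and their genotype tag, where it fits the title, is Maged1 Loxp. The 14 libraries analysed comprised, by title, 4 of control and 4 of cKO mice given saline, and 4 of control and 2 of cKO mice given cocaine, and 1 more cKO cocaine sample was not analysed here. The labels call them independent samples, and p-values below measure the spread between them. In 4 saline libraries (control replicates 3 and 4, cKO replicates 1 and 2) the tag gives the opposite genotype, and groups follow the titles.

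Maged1, the deleted gene, measured 149.9 to 167.2 scaled TPM (TPM divided by a scaling factor of the library) in control saline, and the cKO saline libraries measured 64.6 to 77.4. After cocaine it went against the labels, at 153.8 and 174.0 scaled TPM in labelled cKO cocaine libraries but 58.5 to 87.7 in those labelled control cocaine. The difference between labelled cKO and labelled control was -1.11 on the log2 scale after saline (limma adjusted p = 0.00116) and 1.16 after cocaine (limma adjusted p = 0.00356). The cocaine groups are therefore named below as labelled, and the main comparison is the mean of the cocaine effects in both genotype labels, which stays the same if the labels of the 2 cocaine groups are exchanged. The markers of Vglut2 neurons were present in every library, at a summed 715.5 to 1019 scaled TPM for 5 genes, and those of thalamus at 228.9 to 468.1 scaled TPM for 5 genes. Hypothalamic peptide genes differed between libraries, with a summed 132.6 to 464.7 scaled TPM in control saline, 2.53 to 126.6 in labelled control cocaine, 9.81 to 145.9 in cKO saline and 34.1 to 74.0 in labelled cKO cocaine, and 3 of these 6 genes were lower after cocaine while 2 of 5 thalamic and 2 of 5 neuronal markers were higher. Of the other lists, 1 astrocyte and 1 oligodendrocyte precursor marker were higher, 1 astrocyte, 2 endothelial and 1 marker of dividing cells were lower, and choroid plexus genes reached 13.4 to 1447 scaled TPM in control saline against at most 42.0 elsewhere. Genes of ependyma and motile cilia summed to 28.6 to 31.4 scaled TPM in control saline and 25.7 to 35.1 in labelled cKO cocaine, but 4.63 to 19.6 in cKO saline and 4.40 to 29.9 in labelled control cocaine. Habenular genes spanned 7.17 to 154.6 scaled TPM in labelled control cocaine and 8.09 to 66.5 in the other groups. The part of tissue composition in the values below was not tested. In tissue RNA, fewer cells of a type and less RNA per cell cannot be told apart.

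Polycomb proteins keep genes repressed through marks on histones. PRC1 carries a RING ubiquitin ligase, RING1 or RNF2 (RING1B), bound to a PCGF protein, and attaches monoubiquitin to histone H2A. In canonical PRC1, CBX proteins read methylated histone H3 and Polyhomeotic proteins cluster the complex, whereas variant PRC1 holds RYBP or YAF2 instead of a CBX protein and partners such as KDM2B or BCOR. PRC2 methylates histone H3 through EZH1 or EZH2, which need EED and SUZ12. In neurons, which have left the cell cycle, EZH1 is known as the prevailing methyltransferase, and PR-DUB removes the H2A mark.

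In control saline thalamus the 36 members spanned from 0.15 to 48.9 scaled TPM on average, a scale that is corrected for transcript length and so allows genes to be compared. Cbx6, a reader of the CBX family, was highest at 48.9 ± 2.18 scaled TPM (SD, n = 4) and did not overlap with any other member. Rbbp7 (24.2 ± 0.52) and Yaf2 (22.7 ± 0.97) came next with ranges that touched, 23.7 to 24.9 and 21.9 to 23.8 scaled TPM. Rbbp4 (16.6 ± 0.92) and Phc2 (16.0 ± 1.08) overlapped in the same way. They were followed by Phf1, Cbx7, Ezh1 and Rybp, at 13.8, 11.3, 9.73 and 9.17 scaled TPM.

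**Figure D1:**
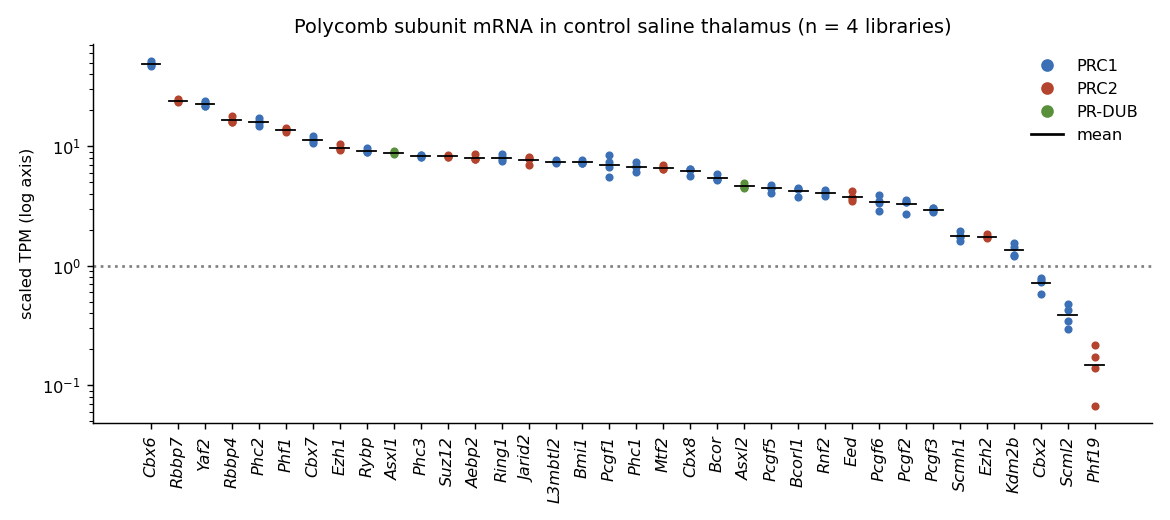
Scaled TPM (log axis) of each of the 36 members in the 4 control saline libraries, ordered by mean. Points are libraries, coloured by complex, black lines are means, and the dotted line marks 1 scaled TPM, below which lie Cbx2, Scml2 and Phf19.

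Within families the members were expressed at unequal levels. Ezh1 stood at 9.73 ± 0.52 scaled TPM and Ezh2 at 1.75 ± 0.06 (SD, n = 4), a mean log2 ratio of 2.47 within a library. Ring1 (8.05 ± 0.48 scaled TPM) lay above Rnf2 (4.08 ± 0.19). Of the PCGF proteins, Bmi1 (7.35 ± 0.22) and Pcgf1 (7.03 ± 1.25) were highest and overlapped, Pcgf5 stood at 4.44 ± 0.27, and Pcgf6, Pcgf2 and Pcgf3 lay between 2.94 and 3.41 scaled TPM. The 3 members that were not tested were listed at low values in all 14 libraries, Cbx2 at 0.51 to 0.91, Scml2 at 0.24 to 0.53 and Phf19 at 0.07 to 0.22 scaled TPM. TPM hold no read counts, so the counting error at these levels is unknown.

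The comparison of cocaine with saline over both genotype labels asked whether the genes that encode the H2A ubiquitination and H3 methylation machinery move with repeated cocaine. Polycomb subunits moved in both directions and by small amounts. Of 33 tested members, 8 rose, against a background of 17.8% of all tested genes, 10 fell, against a background of 15.3%, and 15 did not pass (limma, Benjamini-Hochberg adjusted p under 0.05 over 13471 genes). The 8 that rose were Ring1, Bcorl1, Cbx8, Phc1, Phf1, Phc2, L3mbtl2 and Cbx7, and the 10 that fell were Bmi1, Pcgf5, Rbbp4, Mtf2, Suz12, Phc3, Rnf2, Yaf2, Rbbp7 and Rybp. The largest absolute change among them was 0.32 on the log2 scale, and 0 members reached an absolute log2 fold change of 0.5 together with the adjusted p, as 2.07% of all genes did. The median log2 fold change was 0.04 over the members and 0.0076 over all genes, and the median absolute log2 fold change was 0.13 and 0.12. With TPM as deposited, without scaling between libraries, all 33 members had negative log2 fold changes, 0 rose and 26 fell, against a background of 0.891% and 79.1% of all genes, and the median over all genes was then -0.34. All directions below are therefore relative to the bulk of the transcriptome.

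**Figure D2:**
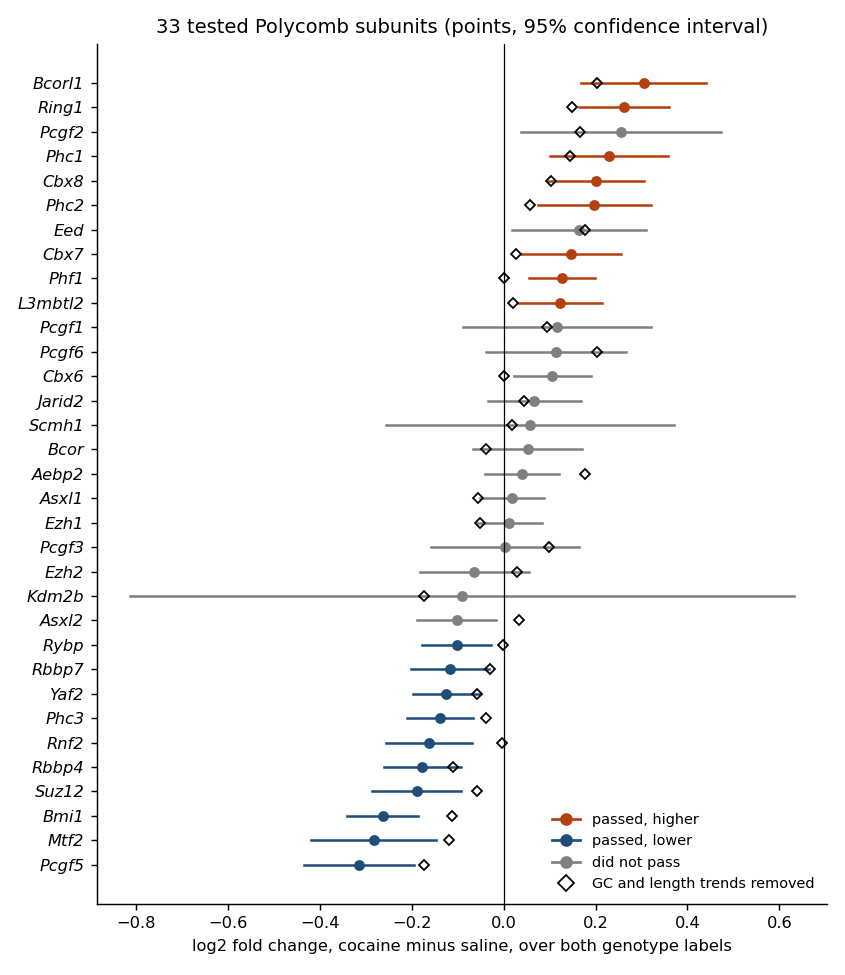
Log2 fold change of cocaine minus saline over both genotype labels for the 33 tested members, with 95% confidence intervals. Filled points are coloured by the test (8 higher, 10 lower, 15 not passing), and open diamonds give the log2 fold change after removal of each library's trends with transcript GC content and length, which lies nearer to 0 for each of the 18 that passed.

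Of the members that passed, 4 also passed in the same direction after removal of the GC content and length trends described below: Ring1 and Bcorl1, which rose, and Bmi1 and Pcgf5, which fell. Their promoters, 250 bases before to 50 after the start of the gene, are shown so that the sequences at the start of genes that moved in opposite directions can be compared. Capitals mark GC boxes (GGGCGG or its complement CCGCCC, with overlapping copies merged), and sequences are RefSeq's on GRCm38.p6, read 5′ to 3′ on the strand of the gene.
Ring1, chr17:34024631-34024930, minus strand: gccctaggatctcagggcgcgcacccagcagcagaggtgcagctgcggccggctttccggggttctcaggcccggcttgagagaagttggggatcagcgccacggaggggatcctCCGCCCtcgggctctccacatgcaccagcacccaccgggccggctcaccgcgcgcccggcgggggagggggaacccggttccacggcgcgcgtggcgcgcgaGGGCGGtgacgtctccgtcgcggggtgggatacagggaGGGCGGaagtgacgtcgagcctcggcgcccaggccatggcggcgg
Bcorl1, chrX:48341108-48341407, plus strand: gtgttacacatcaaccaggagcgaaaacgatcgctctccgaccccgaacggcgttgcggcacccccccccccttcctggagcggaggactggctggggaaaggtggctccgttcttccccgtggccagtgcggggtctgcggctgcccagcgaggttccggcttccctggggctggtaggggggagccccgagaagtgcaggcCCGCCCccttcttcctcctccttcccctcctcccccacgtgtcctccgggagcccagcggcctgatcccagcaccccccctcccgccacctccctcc
Bmi1, chr2:18676768-18677067, plus strand: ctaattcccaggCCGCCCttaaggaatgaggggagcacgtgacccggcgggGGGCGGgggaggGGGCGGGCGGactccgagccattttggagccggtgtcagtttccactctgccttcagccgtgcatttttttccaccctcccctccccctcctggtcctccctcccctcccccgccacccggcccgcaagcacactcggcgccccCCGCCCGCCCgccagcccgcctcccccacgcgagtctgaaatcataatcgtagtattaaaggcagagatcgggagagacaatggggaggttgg
Pcgf5, chr19:36348079-36348378, plus strand: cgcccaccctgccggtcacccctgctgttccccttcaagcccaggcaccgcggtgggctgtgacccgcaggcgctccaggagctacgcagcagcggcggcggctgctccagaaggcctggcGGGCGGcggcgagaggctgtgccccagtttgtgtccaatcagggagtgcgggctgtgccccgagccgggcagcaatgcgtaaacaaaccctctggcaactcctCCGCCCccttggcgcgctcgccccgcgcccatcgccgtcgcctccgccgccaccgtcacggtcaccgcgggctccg
All 4 windows hold at least 1 GC box. They hold 37 CpG dinucleotides in Ring1, 21 in Bcorl1, 23 in Bmi1 and 34 in Pcgf5. Over the 32 members with a window the median was 24 CpG (range 4 to 54), against 7 over all 32851 windows. GC boxes were found in 23 of 32 member windows (71.9%) and in 35.7% of all windows. An ETS core (CCGGAAG, either strand) was found in 6.2% of member and 8.9% of all windows, and a cAMP response element (TGACGTCA) in 3.1% and 1.8%. By direction, the median was 22.5 CpG for the 8 risers and 32 for the 8 fallers with a window. A match is a description of the letters and not a bound site. Each member has 1 window, the nearest to its annotated start, whereas all windows can include several per gene and genes of any level here. The 2 sets therefore differ in more than Polycomb membership. The windows of Cbx7 and Scml2 lay 38473 and 45557 bases from the annotated start.

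Over both labels the RING ligases moved in opposite directions, although Rnf2 passed in neither label alone and Ring1 only in the cKO label. Ring1 (ENSMUSG00000024325.8, chr17:34020792-34024680, minus strand, GRCm38), which encodes the RING1 ligase, measured 8.22, 8.62, 7.54 and 7.82 scaled TPM in control saline, 8.32, 8.97, 8.24 and 8.58 in labelled control cocaine, 6.85, 7.97, 7.18 and 6.65 in cKO saline and 9.74 and 10.04 in labelled cKO cocaine. The 2 libraries labelled cKO cocaine lay above all others, whereas the control groups overlapped. Over both labels Ring1 rose by 0.26 (SE 0.045) on the log2 scale, or 1.20-fold (limma adjusted p = 0.000886). The change was 0.08 (limma adjusted p = 0.335) in the control label and 0.44 (SE 0.07, limma adjusted p = 0.00138) in the cKO label.

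Rnf2 (ENSMUSG00000026484.13, chr1:151458004-151500955, minus strand), which encodes the other catalytic subunit, measured 4.13, 4.06, 4.28 and 3.83 scaled TPM in control saline and 3.70, 3.74, 3.66 and 3.49 in labelled control cocaine. It measured 4.06, 3.82, 4.23 and 4.32 scaled TPM in cKO saline and 3.79 and 3.34 in labelled cKO cocaine. All 6 cocaine libraries lay below all 8 saline libraries, by a narrow margin, 3.79 against 3.82 scaled TPM. Its log2 fold change was -0.14 in the control label (limma adjusted p = 0.0744) and -0.18 in the cKO label (limma adjusted p = 0.0718). Rnf2 fell by 0.16 (SE 0.043) on the log2 scale (limma adjusted p = 0.0117), a call that did not pass without the second cKO cocaine library (-0.12) and that went to -0.0027 (limma adjusted p = 0.97) when GC content and length trends were removed.

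Among the PCGF proteins, which pair with the RING ligases and define the PRC1 variant, 2 of 6 fell and 0 rose. Of all tested genes, 15.3% fell and 17.8% rose. Bmi1 (ENSMUSG00000026739.13, chr2:18677018-18686629, plus strand), a PCGF protein of canonical PRC1, measured 7.30, 7.24, 7.68 and 7.19 scaled TPM in control saline, 6.40, 6.42, 6.59 and 6.51 in labelled control cocaine, 8.29, 7.37, 7.94 and 8.60 in cKO saline, and 6.20 and 6.14 in labelled cKO cocaine. Every cocaine library lay below every saline library. Bmi1 fell by 0.26 (SE 0.036) on the log2 scale, to 0.834 of the saline level, with the smallest adjusted p of all members (limma adjusted p = 0.000176). It fell in the control label (-0.17) and in the cKO label (-0.36), and over both labels passed in 14 of 14 fits that each left out 1 library. With GC content and length trends removed, it passed in neither label alone. Its log2 fold change was then -0.04 in the control label (limma adjusted p = 0.522) and -0.18 in the cKO label (limma adjusted p = 0.0603).

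Pcgf5 (ENSMUSG00000024805.16, chr19:36348309-36460970, plus strand), a partner of variant PRC1, measured 4.73, 4.50, 4.08 and 4.44 scaled TPM in control saline and 3.76, 3.47, 3.15 and 3.03 in labelled control cocaine. In cKO saline it was 4.55, 4.17, 4.24 and 4.53 scaled TPM, and in labelled cKO cocaine 3.81 and 3.28. The cocaine libraries again lay below all saline libraries. Its fall of 0.32 (SE 0.055) on the log2 scale was the largest of the members (limma adjusted p = 0.000948), with -0.36 in the control label (limma adjusted p = 0.00322) and -0.27 in the cKO label (limma adjusted p = 0.0419). The cKO call was lost in 7 of 14 leave-one-out fits (-0.36 to -0.18, the latter without the second cKO cocaine library) and with GC content and length trends removed (-0.09, limma adjusted p = 0.515). Pcgf2, the paralog of Bmi1, had a log2 fold change of 0.26 with a wider error (SE 0.101, limma adjusted p = 0.0688). Pcgf1, Pcgf3 and Pcgf6 had log2 fold changes of 0.12, 0.0032 and 0.11, with limma adjusted p from 0.24 to 0.979.

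Of the readers and clustering subunits of canonical PRC1, 2 of 3 tested CBX genes and 2 of 3 Polyhomeotic genes rose. The remaining Polyhomeotic gene fell, and over all tested genes 17.8% rose and 15.3% fell. Cbx8, a CBX reader, rose from 6.22 ± 0.41 to 7.41 ± 0.49 scaled TPM in the control label (SD, n = 4 each; 0.23 on the log2 scale, limma adjusted p = 0.0146) and by 0.20 over both labels (limma adjusted p = 0.00655). Cbx7 rose by 0.15 over both labels (limma adjusted p = 0.0398), a call that 9 of the 14 leave-one-out fits lost (0.12 to 0.17 over all). Cbx6, the most abundant member, had a log2 fold change of 0.11 (limma adjusted p = 0.0526). Phc1 (0.23, limma adjusted p = 0.00982) and Phc2 (0.20, limma adjusted p = 0.0176) rose, and Phc3 fell (-0.14, limma adjusted p = 0.00737) with no overlap between its cocaine (7.11 to 7.82 scaled TPM) and saline (7.87 to 8.71) libraries. In the second cKO cocaine library Phc2 stood at 21.2 scaled TPM, against 14.4 to 18.7 in all other libraries. Without that library Phc2 (0.12), Phc1 (0.20) and Cbx8 (0.17) did not pass. Scmh1, an SCM protein that binds Polyhomeotic, had a log2 fold change of 0.06 (SE 0.145).

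Of the variant PRC1 subunits, Rybp and Yaf2, which take the place of the CBX protein and stimulate H2A ubiquitination, fell together by 0.10 (limma adjusted p = 0.0393) and 0.13 (limma adjusted p = 0.0121) on the log2 scale. The fall of Rybp passed in 5 of 14 leave-one-out fits (-0.12 to -0.09 over all), and that of Yaf2 in all but the fit without the first cKO cocaine library (-0.11). The log2 fold change of Rybp was 4e-04 in the control label and -0.20 in the cKO label (limma adjusted p = 0.0192), and the interaction did not pass (limma adjusted p = 0.144). Bcorl1 (ENSMUSG00000036959.15, chrX:48341358-48408049, plus strand), the paralog of the corepressor Bcor in the variant complex of Pcgf1, measured 3.74, 4.37, 4.38 and 4.47 scaled TPM in control saline, 4.91, 5.54, 5.35 and 6.63 in labelled control cocaine, 4.19, 4.19, 4.50 and 3.97 in cKO saline and 5.02 and 5.16 in labelled cKO cocaine. All 6 cocaine libraries lay above all 8 saline libraries. Bcorl1 rose by 0.30 (SE 0.063) on the log2 scale, or 1.24-fold (limma adjusted p = 0.00268), and passed in all 14 leave-one-out fits.

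L3mbtl2, a chromatin binder of the Pcgf6 complex, rose by 0.12 (limma adjusted p = 0.0395), which 11 of 14 leave-one-out fits lost (0.10 to 0.15 over all). Bcor had a log2 fold change of 0.05 (limma adjusted p = 0.501). Kdm2b, which brings variant PRC1 to CpG islands, had the widest error of all tested members (SE 0.334). Its scaled TPM was 3.04, 2.67, 0.30 and 2.56 in labelled control cocaine and 0.16 and 1.30 in labelled cKO cocaine. The saline values were 1.21 to 1.54 for control and 0.77 to 1.54 for cKO libraries. The 95% confidence interval of its log2 fold change ran from -0.81 to 0.63, so a difference of the size seen in the other members was not detectable.

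Across all members, 7 did not overlap between the 6 cocaine and the 8 saline libraries. Bcorl1 alone was higher, against a background of 5.95% of all genes, and Rnf2, Bmi1, Pcgf5, Phc3, Rbbp4 and Mtf2 were lower, against a background of 5.00%.

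**Figure D3:**
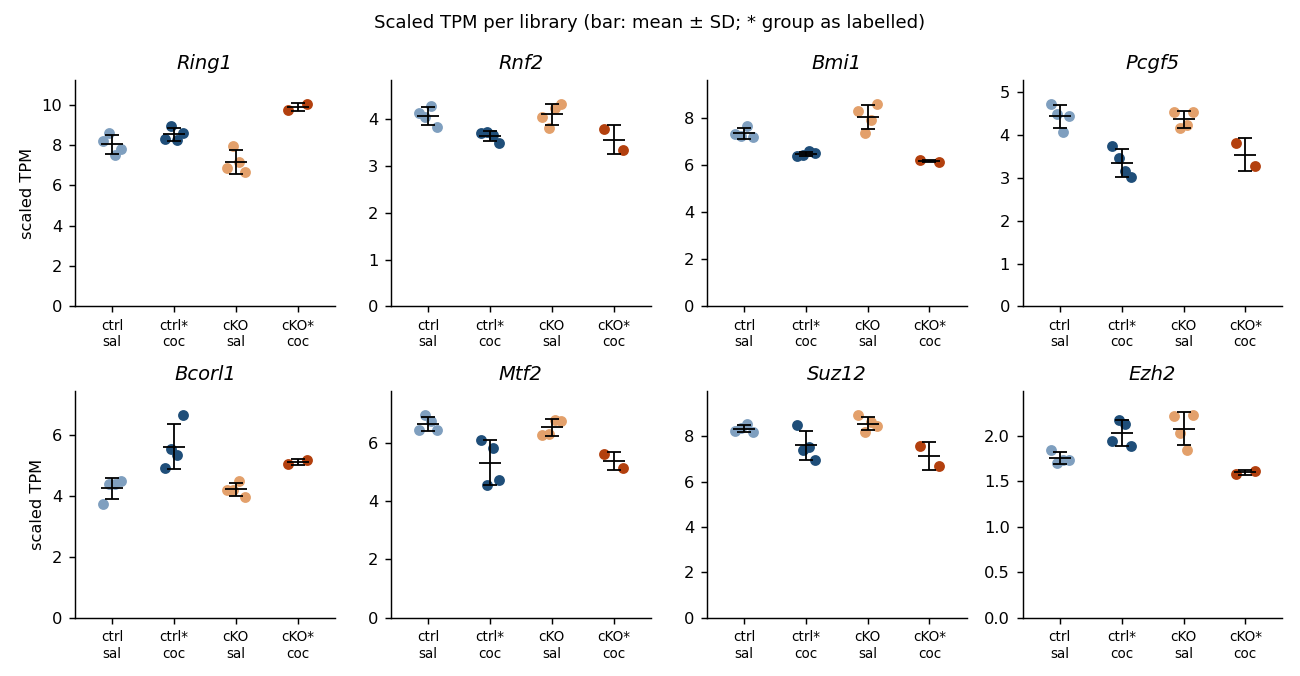
Scaled TPM per library of 8 members by group, with axes starting at 0. Points are libraries, black bars are mean ± SD, and asterisks mark the cocaine groups named by their labels. Bmi1, Pcgf5, Rnf2 and Mtf2 lie lower and Bcorl1 higher in all cocaine libraries, while Ezh2 is lowest in labelled cKO cocaine.

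The PRC2 methyltransferases did not pass in the comparison over both labels. Ezh1 (ENSMUSG00000006920.14, chr11:101191115-101226463, minus strand), the more abundant of the pair, measured 9.44, 10.5, 9.65 and 9.35 scaled TPM in control saline and 9.00, 8.90, 9.21 and 9.07 in labelled control cocaine. It was 9.19, 9.26, 9.13 and 9.76 scaled TPM in cKO saline and 9.93 and 10.5 in labelled cKO cocaine. Labelled control cocaine lay below control saline, and labelled cKO cocaine above cKO saline. The log2 fold changes were -0.10 in the control label, 0.12 in the cKO label and 0.01 over both (95% confidence interval -0.06 to 0.08), with limma adjusted p of 0.102, 0.109 and 0.818.

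Ezh2 (ENSMUSG00000029687.16, chr6:47530139-47595341, minus strand), the enzyme associated with dividing cells, measured 1.84, 1.70, 1.73 and 1.73 scaled TPM in control saline, 1.94, 2.17, 2.13 and 1.89 in labelled control cocaine, 2.21, 2.03, 1.85 and 2.22 in cKO saline, and 1.58 and 1.62 in labelled cKO cocaine. It was higher in labelled control cocaine than in control saline without overlap (0.17, limma adjusted p = 0.0951) and fell in the cKO label (-0.30, SE 0.085, limma adjusted p = 0.0273), a call that 4 of 14 leave-one-out fits lost (-0.35 to -0.27 over all). The interaction of cocaine and genotype label was -0.47 (SE 0.11, limma adjusted p = 0.0588) for Ezh2 and 0.22 for Ezh1 (limma adjusted p = 0.101), so neither difference between the labels passed. Both interactions set control saline and labelled cKO cocaine, the groups with Maged1 at 149.9 scaled TPM or more, against the groups with Maged1 at 87.7 or less. The summed genes of ependyma and motile cilia were at 25.7 scaled TPM or more in the former groups and at 4.40 to 29.9 in the latter, and their part in these interactions was not tested. Of 4 markers of dividing cells, only 1 reached the level needed for testing. Their summed level was 16.3 to 17.2 scaled TPM in control saline and 12.8 to 16.2 in labelled control cocaine. It was 16.1 to 18.0 scaled TPM in cKO saline and 13.5 to 13.9 in labelled cKO cocaine. The part of dividing cells in the Ezh2 values was not tested.

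Of the 4 other core PRC2 subunits, 3 fell and Eed did not pass, against the 15.3% of all tested genes that fell. Suz12 (ENSMUSG00000017548.15, chr11:79993106-80034123, plus strand), which holds the complex together, measured 8.22, 8.36, 8.52 and 8.19 scaled TPM in control saline and 8.50, 7.38, 7.54 and 6.97 in labelled control cocaine. It was 8.92, 8.20, 8.63 and 8.47 scaled TPM in cKO saline and 7.56 and 6.67 in labelled cKO cocaine. All but 1 of the cocaine libraries lay below all saline libraries. Suz12 fell by 0.19 (SE 0.045) on the log2 scale (limma adjusted p = 0.00629), and by 0.15 without passing when the second cKO cocaine library was left out.

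Eed (ENSMUSG00000030619.9, chr7:89954654-89980983, minus strand), which reads the H3 mark, measured 3.62, 4.22, 3.77 and 3.48 scaled TPM in control saline, 3.95, 3.49, 4.21 and 4.43 in labelled control cocaine, 4.21, 3.68, 3.75 and 3.52 in cKO saline and 4.11 and 5.13 in labelled cKO cocaine. The groups overlapped, and the log2 fold change was 0.16 (SE 0.068, limma adjusted p = 0.0805). Rbbp4 (ENSMUSG00000057236.10, chr4:129307100-129335370, minus strand), a histone chaperone shared with other chromatin complexes, measured 17.9, 16.0, 16.1 and 16.3 scaled TPM in control saline, 15.1, 15.1, 13.6 and 13.4 in labelled control cocaine, 16.1, 16.2, 16.7 and 15.9 in cKO saline and 14.7 and 14.5 in labelled cKO cocaine. Each cocaine library was below each saline library, and the fall was 0.18 (SE 0.039) on the log2 scale (limma adjusted p = 0.00392). Its paralog Rbbp7 fell by 0.12 (limma adjusted p = 0.0367), which 7 of 14 leave-one-out fits lost (-0.13 to -0.10 over all). The split of reads between Rbbp4 and Rbbp7, and between other close paralogs, depends on how the authors' quantification divided shared sequence.

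Of the accessory subunits that steer PRC2 to chromatin, 4 of 5 were tested. Of these 1 rose and 1 fell, against 17.8% and 15.3% of all tested genes. Mtf2 fell from 6.26 to 6.93 scaled TPM in the saline libraries to 4.56 to 6.10 in the cocaine libraries, a log2 fold change of -0.28 (SE 0.062, limma adjusted p = 0.00418). Phf1 (ENSMUSG00000024193.8, chr17:26933052-26937908, plus strand), its paralog, measured 14.2, 13.99, 13.7 and 13.3 scaled TPM in control saline, 13.9, 13.9, 13.7 and 13.8 in labelled control cocaine, 11.5, 11.8, 13.0 and 11.7 in cKO saline and 13.8 and 14.9 in labelled cKO cocaine. The cKO saline libraries were lower than all others. Phf1 rose by 0.25 in the cKO label (SE 0.051, limma adjusted p = 0.00571) and had a log2 fold change of 0.0019 in the control label. It rose by 0.13 over both labels (limma adjusted p = 0.0112), and did not pass there (0.10) or in the cKO label (0.20) without the second cKO cocaine library. Jarid2 and Aebp2 had log2 fold changes of 0.07 and 0.04 (limma adjusted p = 0.302 and 0.442), and the PR-DUB cofactors Asxl1 and Asxl2 0.02 and -0.10 (limma adjusted p = 0.694 and 0.0666).

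The comparisons within each label set different libraries against each other. Both come from 1 fit of all 14 libraries with a shared estimate of the spread, so they are not independent. Within the control label, cocaine against saline gave 4 higher and 5 lower members, against a background of 14.2% and 10.2% of all genes. Bcorl1, Cbx8, Phc1 and Cbx6 rose by 0.15 to 0.36 on the log2 scale, and Pcgf5, Rbbp4, Mtf2, Bmi1 and Phc3 fell, by -0.36 to -0.15. Within the cKO label, with 2 cocaine libraries, 4 members were higher and 6 lower, against a background of 10.2% and 9.96%. Ring1, Phf1, Phc2 and Cbx7 rose by 0.24 to 0.44, and Bmi1, Rybp, Suz12, Yaf2, Ezh2 and Pcgf5 fell, by -0.36 to -0.18. Without the second cKO cocaine library, 1 member was higher (Ring1, 0.42) and 1 lower (Bmi1, -0.35) in the cKO label, and 2 were higher and 6 lower over both labels. In the control label Bmi1 did not pass without the third control saline library (-0.15), and Cbx6, Phc1 and Phc3 passed in 3, 8 and 10 of 14 leave-one-out fits (0.12 to 0.19, 0.20 to 0.29 and -0.17 to -0.13). In the cKO label Cbx7, Pcgf5, Phc2 and Yaf2 passed in 6, 7, 9 and 10 of 14 (0.19 to 0.30, -0.36 to -0.18, 0.13 to 0.44 and -0.21 to -0.16). No member reached an absolute log2 fold change of 0.5 with the adjusted p in either label, against 3.08% and 3.14% of all genes. The median absolute log2 fold change was 0.11 over the members and 0.13 over all genes in the control label, and 0.20 and 0.15 in the cKO label.

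The directions of the members followed the base composition of their transcripts. The 8 risers had transcripts of 53.1% to 60.4% GC (median 55.7%), and the 10 fallers of 38.2% to 45.6% (median 42.6%), with no overlap, whereas the 15 that did not pass spanned 40.9% to 54.9% (median 50%). Mtf2 (38.2% GC), Rnf2 (39.5%), Bmi1 (40.2%) and Pcgf5 (40.4%) fell, and Phc2 (60.4%), Phf1 (58.6%) and Ring1 (56.9%) rose. Over the 33 members, Pearson's r between log2 fold change and GC content was 0.81 and Spearman's rho 0.82, a description over genes that share the same libraries. Over the 13186 tested genes with a transcript sequence the same values were 0.31 and 0.51, and the median GC content was 54.2% for risers, 43.3% for fallers and 49.9% for the rest. The slope of expression on GC content, relative to the mean of all libraries, was -0.12 to -0.0093 on the log2 scale per 10 percentage points in the 8 saline libraries and 0.05 to 0.13 in the 6 cocaine libraries, which did not overlap. A property of the libraries that goes with GC content and a change in the tissue cannot be told apart here, since the treatments lie on opposite sides.

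**Figure D4:**
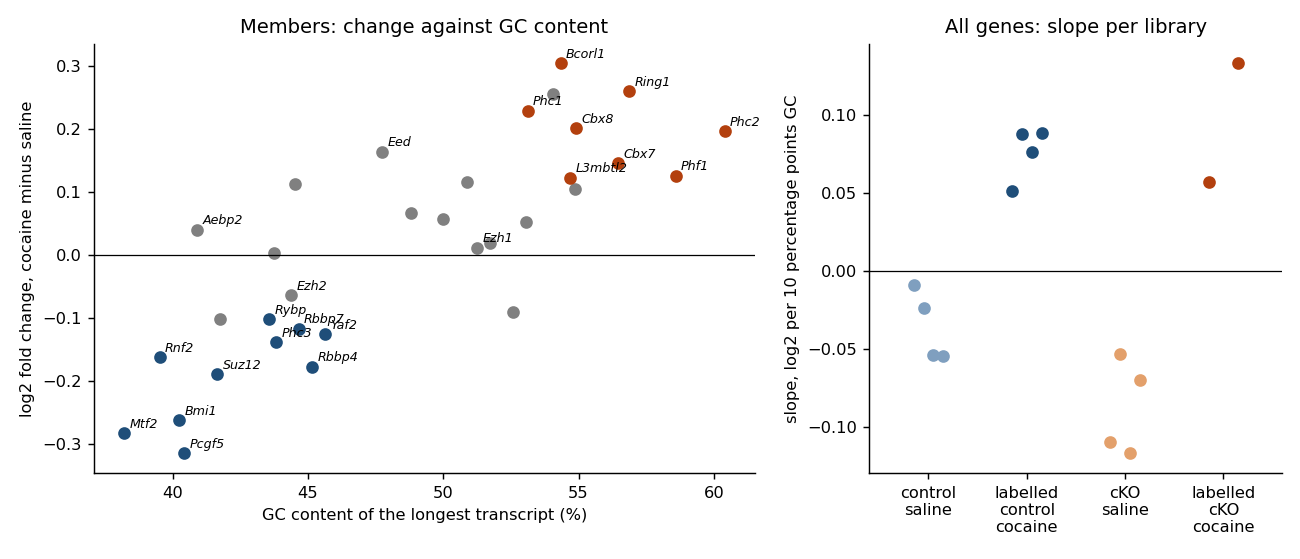
Left, log2 fold change of cocaine minus saline against GC content (percent) of the longest transcript for the 33 tested members, red for higher, blue for lower and grey for not passing. Right, slope of log2 expression on GC content per library over all genes, below 0 in the 8 saline and above 0 in the 6 cocaine libraries.

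When the trends with GC content and length were removed from each library, 3 members were higher and 2 lower over both labels, against a background of 10.8% and 8.88% of all genes. Ring1 (0.15, limma adjusted p = 0.0195) and Bcorl1 (0.20, limma adjusted p = 0.0337) remained higher. Bmi1 (-0.11, limma adjusted p = 0.0412) and Pcgf5 (-0.17, limma adjusted p = 0.0327) remained lower. Within the labels Bmi1 passed in neither, and Ring1 did not in the control label (0.0094, limma adjusted p = 0.917). Bcorl1 and Pcgf5 did not pass in the cKO label (0.13 and -0.09, limma adjusted p = 0.438 and 0.515). Aebp2, a low-GC transcript (40.9%), had a log2 fold change of 0.04 before this step and was higher after it, at 0.18 (limma adjusted p = 0.00641). In the control label 3 were higher and 3 lower, against a background of 11.4% and 6.90%, and these included Ezh2 at 0.25 (limma adjusted p = 0.0233) and Ezh1 at -0.15 (limma adjusted p = 0.0233). In the cKO label 1 was higher, Ring1 at 0.29 (limma adjusted p = 0.0144), and 0 were lower, against a background of 4.41% and 4.32%.

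For 11 pairs of paralogs or alternative subunits, the log2 ratio of deposited TPM + 0.5 within a library was compared between the 6 cocaine and the 8 saline libraries. Libraries of both genotype labels were pooled, so the labels do not weigh equally as they do in the main comparison. The added 0.5 pulls ratios of low genes toward 0 and leaves them some dependence on the scale of each library, which ratios of TPM with nothing added do not have. The log2 ratio of Ring1 to Rnf2 was 0.57 to 1.01 in saline and 1.05 to 1.43 in cocaine libraries, with no overlap and a difference of 0.36 (two-sided exact permutation p = 0.000999). That of Mtf2 to Phf1 was -1.09 to -0.76 in saline and -1.49 to -1.12 in cocaine libraries, a difference of -0.39 (exact permutation p = 0.000333, the smallest these libraries can give). Pcgf2 to Bmi1 shifted by 0.51 (exact permutation p = 0.00433), Pcgf3 to Pcgf5 by 0.34 (exact permutation p = 0.00333) and Bcor to Bcorl1 by -0.27 (exact permutation p = 0.011). Asxl1 to Asxl2 (0.10, exact permutation p = 0.0546), Ezh1 to Ezh2 (-0.06, exact permutation p = 0.57) and the 4 ratios Rybp to Yaf2, Cbx6 to Cbx7, Phc1 to Phc2 and Rbbp4 to Rbbp7 (exact permutation p from 0.178 to 0.846) did not pass. In the control label the mean log2 ratio of Ezh1 to Ezh2 was 2.21 after saline and 1.88 after cocaine. In the cKO label it was 1.96 and 2.31, so the pooled value averages opposite shifts. The p-values of the ratios are not adjusted over the ratios. With nothing added, an alternative chosen after the data were seen, the shifts were 0.42 for Ring1 to Rnf2 (exact permutation p = 0.000666), -0.43 for Mtf2 to Phf1 (exact permutation p = 0.000333), 0.54 for Pcgf2 to Bmi1 (exact permutation p = 0.00566), 0.38 for Pcgf3 to Pcgf5 (exact permutation p = 0.00433) and -0.29 for Bcor to Bcorl1 (exact permutation p = 0.0113). Asxl1 to Asxl2 then passed at 0.13 (exact permutation p = 0.0266), and Ezh1 to Ezh2 stood at 0.0078 (exact permutation p = 0.952).

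**Figure D5:**
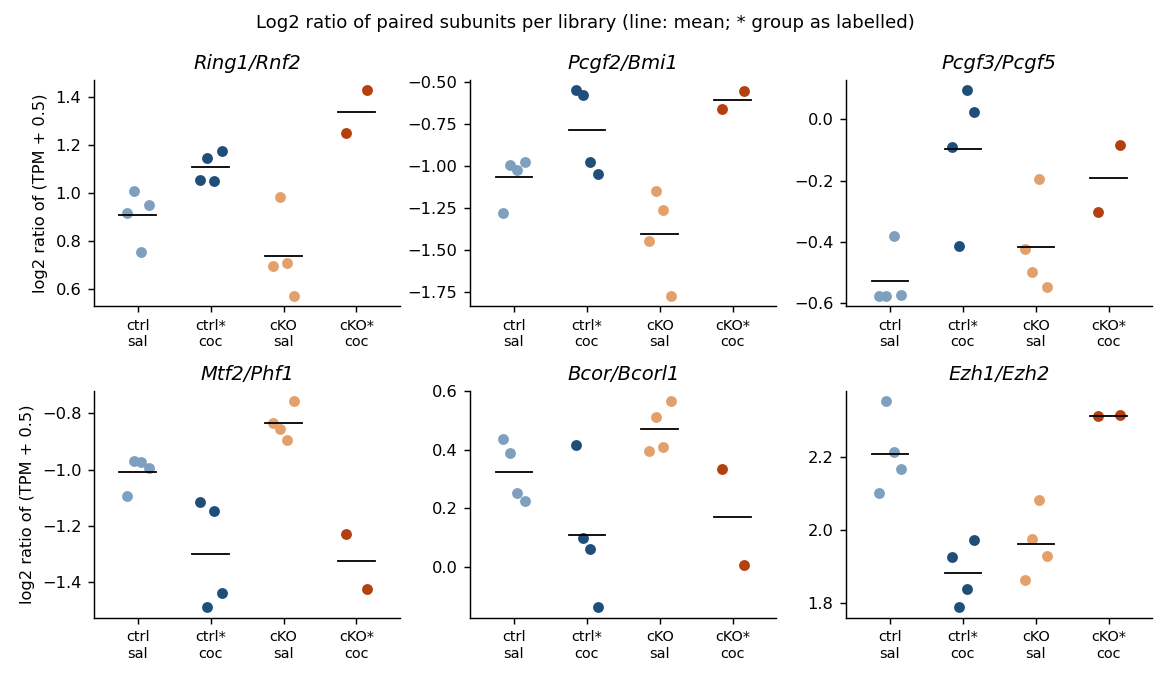
Log2 ratio of deposited TPM + 0.5 for 6 pairs of subunits per library, by group. Points are libraries, lines are group means, and asterisks mark the cocaine groups named by their labels. Ring1/Rnf2 and Mtf2/Phf1 do not overlap between saline and cocaine libraries, and Ezh1/Ezh2 is lower in labelled control cocaine and cKO saline than in the other groups.

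The members of a pair also differed in base composition. GC content was 17.3 percentage points higher in Ring1 than in Rnf2, 13.8 higher in Pcgf2 than in Bmi1 and 20.4 lower in Mtf2 than in Phf1 (-20.4), but within 3.31 points for Pcgf3 against Pcgf5 and within 1.29 for Bcor against Bcorl1 (-1.29). After the trends with GC content and transcript length were taken out, on log2(scaled TPM + 0.5) and likewise chosen after the data were seen, the shifts were 0.12 for Ring1 to Rnf2 (exact permutation p = 0.0699), 0.25 for Pcgf2 to Bmi1 (exact permutation p = 0.0736) and -0.12 for Mtf2 to Phf1 (exact permutation p = 0.0343). They were 0.29 for Pcgf3 to Pcgf5 (exact permutation p = 0.0107) and -0.25 for Bcor to Bcorl1 (exact permutation p = 0.0133). Asxl1 to Asxl2 changed sign, to -0.09 (exact permutation p = 0.0286).

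The comparison of cKO with control asked whether loss of Maged1 in Vglut2 neurons alters the Polycomb machinery itself. After saline, where Maged1 followed the titles, 0 of 33 members passed in either direction by limma. The background was 0.0668% higher and 0.111% lower of all genes. An unadjusted p under 0.05 was found for 5 members. The share of all genes at that threshold is not given here, so no excess of members can be read from this count. Phf1 was nearest, at -0.20 (SE 0.042, limma adjusted p = 0.0703), with 11.5 to 13.0 scaled TPM in cKO saline and 13.3 to 14.2 in control saline. It passed with quantile normalization, with a mean of at least 5 TPM and without the third cKO saline library. Ezh2 was 0.19 higher (limma adjusted p = 0.191), Ring1 lower at -0.16 (limma adjusted p = 0.191) and Bmi1 higher at 0.12 (limma adjusted p = 0.206), which did not pass either. The median absolute log2 fold change was 0.06 over the members and 0.08 over all genes. For 4 libraries against 4 the smallest possible exact permutation p is 0.0286, which the log2 ratios of Ezh1 to Ezh2 (-0.25 in cKO minus control) and of Mtf2 to Phf1 (0.17) reached, as they did with nothing added to TPM (-0.30 and 0.18).

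After cocaine, where Maged1 went against the labels, 0 members passed by limma between labelled cKO and labelled control. The background was 0.0223% higher and 0.0371% lower. An unadjusted p under 0.05 was found for 5 members, again without a share of all genes, so no excess can be read from it. The smallest p-values were those of Ezh1 (0.16, limma adjusted p = 0.271) and Ezh2 (-0.27, limma adjusted p = 0.277), both without overlap between the 4 and the 2 libraries. For the interaction, 0 members passed by limma, against a background of 0.616% and 0.668%. There 6 members had an unadjusted p under 0.05, likewise without a share of all genes and so not a sign of an excess. After Ezh2 these were led by Ring1 (0.36, limma adjusted p = 0.0695) and Phf1 (0.25, limma adjusted p = 0.0805). With nothing added to TPM, the log2 ratio of Ezh1 to Ezh2 was 2.66 and 2.70 in labelled cKO cocaine and 2.36 to 2.63 in control saline, above the 2.03 to 2.27 of labelled control cocaine and the 2.05 to 2.31 of cKO saline.

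Of 50 other genes of the Polycomb pathway (cofactors, deubiquitinases, demethylases and opposing factors), 48 were tested, and 14 rose and 10 fell over both labels, against the 17.8% and 15.3% of all tested genes. Usp7, the deubiquitinase that the study followed, measured 18.4 to 20.4 scaled TPM in control saline and 18.4 to 19.4 in labelled control cocaine. In cKO saline it was 19.58 to 20.55 scaled TPM, above the 18.63 and 18.38 of labelled cKO cocaine. Its log2 fold change was -0.07 over both labels (limma adjusted p = 0.0743) and 0.05 between cKO and control saline (limma adjusted p = 0.534). Mbd6, a methyl-CpG-binding-domain protein that joins PR-DUB, measured 0.64, 1.18, 1.43 and 0 scaled TPM in control saline, 1.19, 1.497, 1.48 and 4.04 in labelled control cocaine, 0.31, 0.24, 0.25 and 0.87 in cKO saline and 3.39 and 2.66 in labelled cKO cocaine. The control groups overlapped, and the log2 fold change over both labels was 1.497 (SE 0.323, limma adjusted p = 0.00361). Bap1, the catalytic subunit of PR-DUB, had a log2 fold change of 0.05 (limma adjusted p = 0.27). Between cKO and control after saline, and between the labelled groups after cocaine, 0 of the 48 passed by limma.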

How the data were processed

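Per the labels and the study's methods, the authors sequenced stranded, ribosomal RNA-depleted libraries of whole thalamus, aligned them with STAR 2.5.3a to mm10 (GRCm38.p4) and quantified genes with Salmon, and deposited TPM per gene and library. A comma marks the decimals in 2 deposited files and was taken for a point. Depth cannot be read from TPM, so counting error is unknown. The listed genes sum to 312659 to 377401 TPM per library.

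TPM were divided by trimmed-mean-of-M-values (TMM) factors computed here from TPM (30% of log ratios and 5% of mean levels trimmed), and log2(scaled TPM + 0.5) of the 13471 genes that reached 1 TPM in 3 or more libraries was fitted with limma 3.58.1 (R 4.3.3, intensity trend, 4 groups), with Benjamini-Hochberg adjustment over all of them. Fold changes are on this scale, which understates those of low genes. Ratios used TPM + 0.5 and an exact permutation test. The code was tested on simulated data. Transcript GC content and length came from GENCODE M21 (97.9% of tested genes), promoters from RefSeq (32 of 36 members).

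Values of every library were given for Ring1, Rnf2, Ezh1, Ezh2, Eed and Suz12 and for the members with the 3 smallest adjusted p in each comparison among those that passed; of other genes, Maged1, Usp7 and pathway genes that passed at a log2 fold change of 0.5 or more in either direction were named, except for a gene that is not reported here. Kdm2b, Bap1 and the genes of the other observations were singled out after their values were seen. Members and lists were chosen with earlier results of these data known. Alternatives were other scalings, pseudocounts and filters, removal of GC content and length trends, a replicate block, other genotype labels and leaving out each library.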

Additional observations from a re-analysis of the deposited data

Results flagged for a closer look

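In groups of 4 libraries, a library was singled out where its distance to the nearest other made up most of the range of the group (Dixon's 95% criterion). This held for 12 of 99 groups examined, where chance gives about 1 in 20. Control saline replicate 1 was low for Pcgf2 (2.73 scaled TPM, others 3.41 to 3.54) and Bcorl1 (3.74, others 4.37 to 4.47) and high for Rbbp4 (17.9, others 16.0 to 16.3) and Aebp2 (8.64, others 7.86 to 7.88). Control saline replicate 2 was high for Bcor (5.86, others 5.22 to 5.30). Control saline replicate 4 was low for Cbx8 (5.60, others 6.37 to 6.49) and high for Asxl2 (4.89, others 4.51 to 4.56). In cKO saline, replicate 1 was low for Cbx6 (44.9, others 49.0 to 49.5) and Bcor (5.64, others 6.10 to 6.17), replicate 2 was high for Jarid2 (8.02, others 7.37 to 7.44) and replicate 3 was low for Aebp2 (8.62, others 8.82 to 8.85). Labelled control cocaine replicate 4 was high for Asxl2 (4.48, others 4.24 to 4.27). Over both labels, Bcorl1 and Rbbp4 also passed without control saline replicate 1.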

How the results depend on the processing

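Counts are members higher and lower (8 and 10 over both labels, 4 and 5 in the control label, 4 and 6 in the cKO label); where a count moved the cause was not tested. A log2 fold change minimum of 0.5 gave 0 for each. TPM as deposited gave 0 and 26, 0 and 25, and 0 and 19, and reversed Ring1 (-0.10), Cbx7 (-0.22), Cbx8 (-0.15), Phc1 (-0.13), Phc2 (-0.17), Bcorl1 (-0.042), L3mbtl2 (-0.24) and Phf1 (-0.24) over both labels, Cbx6 (-0.22), Cbx8 (-0.11) and Phc1 (-0.11) in the control label, and Cbx7 (-0.13), Phc2 (-0.10) and Phf1 (-0.13) in the cKO label. With TPM as deposited, 120 of all 13471 genes were higher and 10661 lower over both labels. The numbers were 112 and 9515 in the control label and 107 and 8124 in the cKO label. Removing GC content and length trends gave 3 and 2, 3 and 3, and 1 and 0. Genotype from the tags gave 5 higher over both labels and 3 lower in the cKO label, and the 10 libraries with agreeing labels gave 2 higher over both, 0 and 1 in the control label and 1 and 1 in the cKO label. In the cKO label 2 were higher with no filter on low values and with only the groups compared. Leaving out 1 library gave 2 to 8 and 6 to 10 over both labels (2 and 6 without cKO cocaine replicate 2), 2 to 4 and 4 to 5 in the control label (2 higher without control saline replicate 3 or 4 or control cocaine replicate 4), and 1 to 5 and 1 to 7 in the cKO label (1 and 1 without cKO cocaine replicate 2, 2 and 2 without cKO saline replicate 1, and 2 higher without cKO saline replicate 2 or 3 or control saline replicate 3). Between cKO and control saline, 0 to 1 were lower (1, Phf1, without cKO saline replicate 3, with quantile normalization and with a mean of at least 5 TPM). For the interaction 0 to 1 were higher (Ring1 without cKO saline replicate 2, Phf1 without replicate 3) and 0 to 1 lower (Ezh2 without control cocaine replicate 1, with quantile normalization and with no intensity trend, 1 each). Counts after cocaine stayed at 0 under all alternatives, and pseudocounts of 0.1 and 1 and median-of-ratios scaling moved no count by over 1.5 times.

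The replicate block gave 2 higher and 3 lower in the cKO label and moved no other count by over 1.5 times. Libraries with the same replicate number did not deviate together (mean r -0.0138 over 18 pairs, against 0.00458 over 54 pairs with different numbers), so the numbers were taken as names without pairing.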

Other observations

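Other genes of the Polycomb pathway, singled out here after their values were seen, also moved in both directions after cocaine over both genotype labels. The values below keep the trends with GC content and transcript length, and the part of those trends in them was not tested. Auts2, Fbrs and Fbrsl1, which encode related partners of the variant PRC1 with PCGF3 or PCGF5, rose by 0.35 (SE 0.059), 0.33 (SE 0.031) and 0.30 (SE 0.055) on the log2 scale (limma adjusted p = 0.00077, 1.7e-05 and 0.00143), whereas Pcgf5 itself fell. Of the casein kinase 2 subunits that join this complex, Csnk2b (0.18) and Csnk2a2 (0.23) rose and Csnk2a1 fell (-0.10). The demethylases that remove the PRC2 mark parted, with Kdm6b higher (0.29, limma adjusted p = 0.000473) and Kdm6a lower (-0.20, limma adjusted p = 0.00732). Hcfc1 and Ogt, which bind PR-DUB, moved apart (0.28 and -0.23), and Mysm1, a deubiquitinase of histone H2A, fell (-0.27, limma adjusted p = 0.00221). Rest, a repressor of neuronal genes, rose by 0.20 (limma adjusted p = 0.0199). Csnk2a1 was the only one of the 48 tested pathway genes to pass for the interaction (-0.26, limma adjusted p = 0.0452). The background there was 0.616% of all genes higher and 0.668% lower.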
